A study of Mus musculus with 8 samples.

Results

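The mRNA levels of 10 genes that shorten, or bind, the poly(A) tail of messenger RNA were followed in oocytes of Rbpms2 knockout and wild-type mice. The genes were taken by name from the deposited expression table, which lists 21959 genes: Cnot1, Cnot6, Cnot6l, Cnot7 and Cnot8 of the CCR4-NOT complex, the adaptors Btg4, Zfp36l2 and Ythdf2, and the cytoplasmic poly(A)-binding proteins Pabpc1 and Pabpc1l. All 10 were found. Oocytes came from ovaries of postnatal day 1 (P1) mice, either Rbpms2 knockout (KO) or wild type (WT), with 4 RNA-seq libraries per genotype. Each tube held 5 to 10 hand-picked cells described as putative primordial oocytes, whose mRNA was amplified for 18 cycles. The labels name no other allele, strain or treatment, do not say which stretch of Rbpms2 was deleted, and do not say whether tubes of a genotype came from separate animals. The p-values below therefore reflect only tube-to-tube spread, part of which may be technical.

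As background, most mRNA decay begins when the poly(A) tail is removed. The main enzyme is CCR4-NOT, a complex built on the large scaffold CNOT1. It carries a pair of exonucleases: a CCR4-type enzyme, either CNOT6 or its paralog CNOT6L, and a CAF1-type enzyme, either CNOT7 or its paralog CNOT8. Adaptors bring the complex to chosen mRNAs. BTG4 does so for the clearance of maternal mRNA in maturing mouse oocytes and early embryos, ZFP36L2 binds AU-rich elements, and YTHDF2 binds mRNA methylated at adenosine (m6A). PABPC1 coats the tails of translated mRNAs, and PABPC1L is its counterpart in oocytes and early embryos. Growing oocytes store mRNA in a stable form, so the balance between tail shortening and tail protection is a known control point of the germline. RBPMS2 itself is an RNA-binding protein whose family recognises paired CAC trinucleotides.

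Promoters of a few of these genes are shown because the transcription factors that drive oocyte genes read short DNA motifs: FIGLA and SOHLH1 belong to the bHLH class, which binds the E-box CANNTG, and NOBOX binds TAATTG. Of the 10 genes, 6 matched the RefSeq promoter table (GRCm38.p6), which gives 250 bases before to 50 bases after a listed start. The Btg4 promoter (chr9:51115751-51116050, plus strand) belongs to the gene with the largest difference between genotypes, the Pabpc1l promoter (chr2:164024974-164025273, plus strand) to the gene with almost no reads, and the Ythdf2 promoter (chr4:132212207-132212506, minus strand) to an adaptor that was higher in KO. Capitals mark CANNTG, searched on both strands, where it reads the same in either direction.
Btg4 promoter: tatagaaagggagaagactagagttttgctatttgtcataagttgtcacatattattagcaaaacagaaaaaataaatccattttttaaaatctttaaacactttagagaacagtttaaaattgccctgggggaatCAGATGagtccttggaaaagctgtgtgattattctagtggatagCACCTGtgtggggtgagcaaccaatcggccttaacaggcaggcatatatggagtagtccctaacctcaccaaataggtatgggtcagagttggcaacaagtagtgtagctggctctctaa
Pabpc1l promoter: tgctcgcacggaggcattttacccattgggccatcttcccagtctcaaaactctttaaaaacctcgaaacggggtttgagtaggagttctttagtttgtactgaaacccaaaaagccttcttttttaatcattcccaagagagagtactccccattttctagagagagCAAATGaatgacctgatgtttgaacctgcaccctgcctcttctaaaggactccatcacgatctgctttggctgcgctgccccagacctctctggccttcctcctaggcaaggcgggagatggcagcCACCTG
Ythdf2 promoter: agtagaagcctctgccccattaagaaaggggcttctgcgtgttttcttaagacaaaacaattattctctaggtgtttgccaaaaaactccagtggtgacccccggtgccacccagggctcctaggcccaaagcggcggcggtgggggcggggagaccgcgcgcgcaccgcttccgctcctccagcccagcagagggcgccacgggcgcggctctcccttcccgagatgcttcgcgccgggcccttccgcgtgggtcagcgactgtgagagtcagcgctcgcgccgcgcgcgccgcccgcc
The Btg4 and Pabpc1l windows each held 2 matches to CANNTG, and the Ythdf2 window held 0. CANNTG occurs in 72.3% of the 32851 promoter windows of the same length, so a match is common. TAATTG, which does not overlap CANNTG in these windows, matched once on either strand of the Ythdf2 window, in neither of the other windows, and in 8.0% of all windows. G and C made up 39.0% of the bases of the Btg4 window, 49.0% of the Pabpc1l window and 66.3% of the Ythdf2 window.

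The 3′ untranslated regions were searched for CAC on the transcript strand, in 1 GENCODE M21 transcript per gene, because paired CAC sites are what the RBPMS family is known to bind. A pair here is 2 CAC with 1 to 12 bases between them. The windows below come from the 3 genes that were lower in KO with no overlap between genotypes (GRCm38: Btg4 chr9:51119422-51119450, plus strand; Zfp36l2 chr17:84184952-84184980, minus strand; Cnot6l chr5:96076654-96076683, minus strand). Capitals mark 1 CAC pair per window, and the Btg4 and Zfp36l2 windows hold further CAC that are not marked.
Btg4 pair: gtccttgCACacagaccagCACttgactt
Zfp36l2 pair: gttgatccgCACcactgCACcacaactca
Cnot6l pair: tcatttgCACattatcaaagCACttaaatt
CAC was not dense in the group. Among 9441 tested genes with a 3′ untranslated region of at least 200 bases, the median was 13.5 CAC per kilobase (quartiles 10.5 and 17.0), and 81.5% had at least 1 pair. Btg4 had 7.68 per kilobase with 2 pairs, Zfp36l2 14.8 with 5 pairs, Cnot6l 14.6 with 6 pairs and Cnot8 14.9 with 4 pairs. Of the genes higher in KO, Pabpc1 had 4.56 per kilobase and no pair, Cnot7 had 10.5 and no pair, and Ythdf2 had 11.4 with 6 pairs. Cnot1 had 8.37 and no pair, Cnot6 11.4 with 10 pairs, and Pabpc1l 18.0 with 2 pairs. All 3 genes called higher in KO were below the median density, as was Btg4 among the 4 called lower, while Zfp36l2, Cnot6l and Cnot8 were above it. With 7 genes this is a description only.

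The expression values are FPKM, fragment counts scaled by exon length and library size. This scaling does not remove differences between libraries in RNA composition or in the effect of GC content. Size factors by the median of ratios still ran from 0.891 in KO replicate 4 to 1.16 in WT replicate 3, so other scalings are reported below. The values fall on steps of whole reads, which gives 9564416 to 14542893 reads in the KO libraries and 8321942 to 11941359 in the WT libraries. Rbpms2 mRNA was at 38.4, 58.3, 31.0 and 42.5 FPKM in KO, against 158.1, 167.4, 135.8 and 212.8 FPKM in WT, a log2 difference of -1.98 (SE 0.22). Transcript remained in every KO library. The germ cell genes Ddx4 and Dazl were found in all 8 libraries. Of 9 germ cell and oocyte markers, 3 were higher in KO (Ddx4, Dazl and Sycp3) and 6 lower (Figla, Nobox, Lhx8, Sohlh1, Kit and Dppa3), and their summed level was 1831 to 2988 FPKM in KO against 4732 to 7171 FPKM in WT. In these tubes, fewer cells of a type and less RNA per cell cannot be told apart. Signal from other ovarian cells was uneven: 8 stromal markers summed to 7.61 to 319.0 FPKM in KO and 3.45 to 71.6 FPKM in WT, with 0 of 8 differing by the test below. Of 7 immune markers, Lyz2 and Mrc1 were higher in KO, the sum was 16.1 to 305.8 FPKM in KO against 0.126 to 16.6 FPKM in WT, and C1qa was at 0 in every WT library. Endothelial markers summed to 117.9 FPKM in KO replicate 1 and to at most 5.81 FPKM elsewhere. Over the stromal, pregranulosa, endothelial, immune and surface epithelial lists together, KO replicates 3 and 2 and WT replicate 3 had the highest mean log2 levels. These were 3.39, 2.40 and 1.499, and results are also given without those 3. KO replicate 1 followed closely at 1.446, then KO replicate 4 at 1.02, and WT replicates 4, 2 and 1 at 0.823, 0.695 and 0.275. Without those 3 libraries, every remaining KO library thus still lay above every remaining WT library. Leaving them out therefore does not separate this signal from genotype, and its part in the calls was not tested. Erythroid markers followed a different order, with sums of 101.8, 2819, 3212 and 99.6 FPKM in KO and 4211, 160.0, 5354 and 11.9 FPKM in WT. A second set of results therefore leaves out the 4 libraries richest in erythroid markers, KO replicates 2 and 3 and WT replicates 1 and 3, which keeps 2 libraries per genotype.

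**Figure D1:**
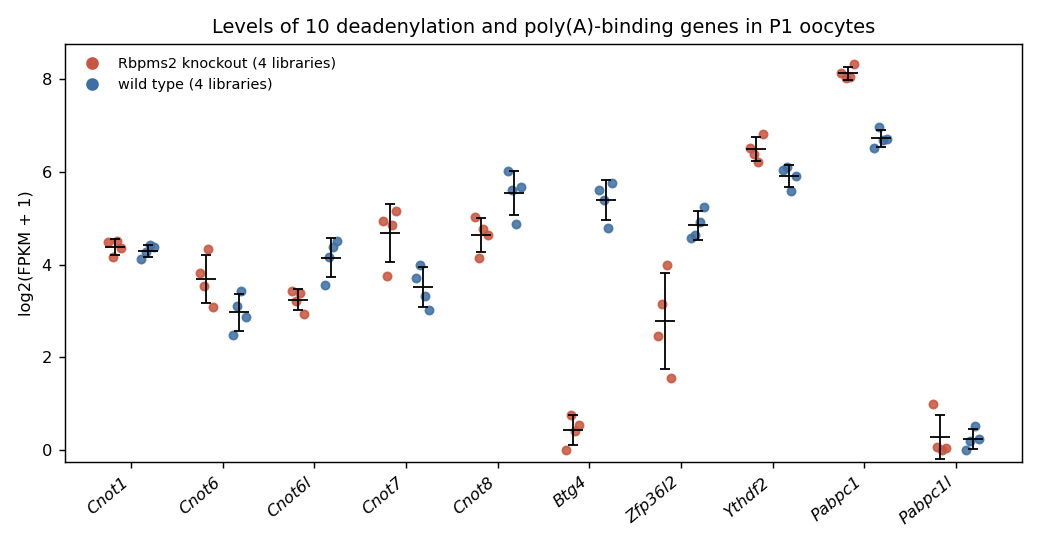
Levels of the 10 genes in each library, as log2(FPKM + 1), with KO libraries to the left of WT libraries for each gene. Points are libraries, long ticks group means and vertical bars 1 SD (n = 4). Pabpc1 sits highest in both genotypes, Btg4 is near 0 in KO, and Pabpc1l is near 0 throughout.

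Differences were tested for every gene with at least 1 FPKM in at least 4 libraries, 11235 genes in all, on log2(FPKM + 1) with limma, and a gene was called at an adjusted p under 0.05. Of the 10 genes, 9 were tested and 7 were called, where 43.4% of all tested genes were. Cnot7, Ythdf2 and Pabpc1 were higher in KO, where 17.7% of tested genes were, and Cnot6l, Cnot8, Btg4 and Zfp36l2 were lower in KO, where 25.6% were. Cnot1 and Cnot6 were not called, and Pabpc1l fell below the filter. For 5 of the 9 there was no overlap between KO and WT libraries, a share of 39.9% among tested genes. Ythdf2 and Pabpc1 had KO above WT, as did 15.9% of tested genes, and Cnot6l, Btg4 and Zfp36l2 had KO below WT, as did 24.0%. The median log2 difference was 0.08 over the 9 tested genes and -0.12 over all tested genes. Over all tested genes 1991 were higher and 2880 lower in KO. The split was 2312 and 2506 with median-of-ratios scaling, 2503 and 2511 with quantile normalization, and 2070 and 2133 after a correction for GC content. The median over all genes was -9.5e-05 with median-of-ratios scaling, 0.04 with quantile normalization and 0.03 after the GC correction. Without WT replicate 4, 1 gene was called higher and 2 lower. Without the 3 libraries richest in stromal and the other non-erythroid markers, 3 were called higher and 3 lower. Without the 4 libraries richest in erythroid markers, 2 were called higher and 4 lower.

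**Figure D2:**
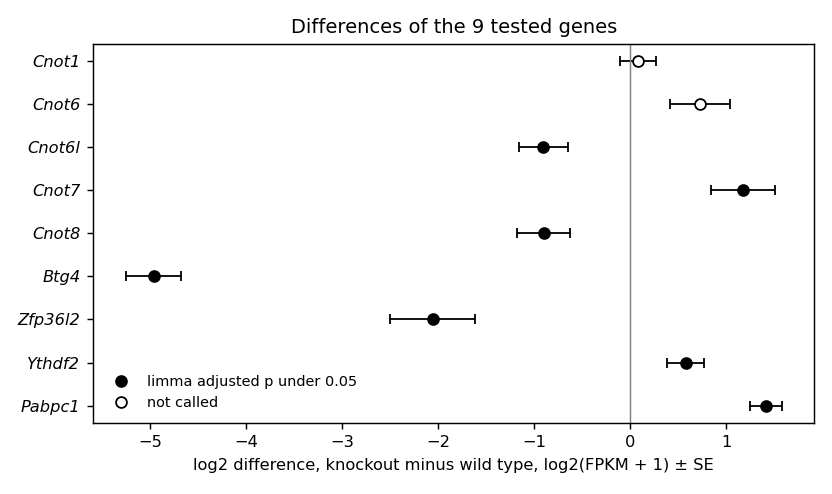
Log2 difference, KO minus WT, of the 9 tested genes on log2(FPKM + 1), with bars of 1 standard error. Filled points passed the test and open points did not. Btg4 stands at -4.96, Zfp36l2 at -2.06 and Pabpc1 at 1.41.

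The scaffold showed no call. Cnot1 (ENSMUSG00000036550, chr8:95719451-95807464, minus strand) encodes the backbone on which the other CCR4-NOT subunits assemble. It was at 21.6, 16.8, 21.9 and 19.5 FPKM in KO and at 16.5, 18.4, 20.4 and 19.96 FPKM in WT. The groups overlapped almost entirely. The log2 difference was 0.08 (SE 0.19, limma adjusted p = 0.760), and the GC correction, which removes from each library a smooth curve fitted to transcript GC content, turned it to -0.074, again with no call.

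Within each pair of catalytic paralogs, the difference was positive for the one and negative for the other, although Cnot6 alone was not called. Of the CCR4-type nucleases, Cnot6l (ENSMUSG00000034724, chr5:96070333-96164171, minus strand) was at 9.82, 8.35, 9.54 and 6.65 FPKM in KO and at 10.8, 17.0, 19.9 and 21.7 FPKM in WT. All 4 KO libraries lay below all 4 WT libraries, though KO replicate 1 and WT replicate 1 were close. The mean was 8.59 ± 1.44 FPKM in KO against 17.3 ± 4.77 FPKM in WT (SD, n = 4 each), a log2 difference of -0.91 (SE 0.26, limma adjusted p = 0.0155). The call was lost without WT replicate 4 (adjusted p = 0.0557) and without the 3 libraries richest in non-erythroid markers (log2 difference -0.89, adjusted p = 0.0665). The GC correction gave a larger log2 difference of -1.48, still called.

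Its paralog Cnot6 (ENSMUSG00000020362, chr11:49671503-49712723, minus strand) was at 13.2, 10.7, 19.2 and 7.54 FPKM in KO and at 4.64, 7.58, 9.84 and 6.27 FPKM in WT. The groups overlapped, with 3 KO libraries above every WT library. The mean was 12.7 ± 4.94 FPKM in KO and 7.08 ± 2.198 FPKM in WT, and the log2 difference of 0.73 (SE 0.31) missed the threshold (limma adjusted p = 0.0822). It was called without KO replicate 4 (log2 difference 0.93, adjusted p = 0.0366), and it was 0.17 after the GC correction.

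The balance of the CCR4-type paralogs within a library differed between genotypes. Cnot6l made up 42.8%, 43.8%, 33.2% and 46.8% of the summed FPKM of the pair in KO, against 69.98%, 69.1%, 66.9% and 77.6% in WT. Cnot6 was thus the more abundant paralog in every KO library and Cnot6l in every WT library. The log2 ratio of Cnot6l to Cnot6 was -0.45 ± 0.34 in KO and 1.18 ± 0.31 in WT (SD, n = 4 each), a difference of -1.63 (p = 0.0286 by an exact two-sided permutation of the libraries, and 0.0286 adjusted over the 3 paralog ratios tested). No smaller p is possible with 4 libraries in each group. KO and WT libraries did not overlap in any of the 3 ratios, beside 39.9% of single tested genes without overlap. The share among other gene pairs was not examined. The summed level of the pair was 21.2 ± 6.16 FPKM in KO and 24.4 ± 6.35 FPKM in WT, a gap smaller than the spread within either group.

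Of the CAF1-type nucleases, Cnot7 (ENSMUSG00000031601, chr8:40492540-40515847, minus strand) was at 29.7, 12.6, 28.1 and 34.8 FPKM in KO and at 12.1, 15.0, 9.04 and 7.10 FPKM in WT. KO replicate 2 lay inside the WT range and the other KO libraries above it. The mean was 26.3 ± 9.58 FPKM in KO against 10.8 ± 3.45 FPKM in WT, 2.44-fold higher, with a log2 difference of 1.17 (SE 0.33, limma adjusted p = 0.0157). The call was lost without WT replicate 4 (adjusted p = 0.0532) and after the GC correction, which gave a log2 difference of 0.67 (adjusted p = 0.103). Exons of Cnot7 overlap Zdhhc2 on the opposite strand. Zdhhc2 was at 0.0619, 6.23, 5.19 and 0 FPKM in KO and at 1.38, 4.22, 3.11 and 3.30 FPKM in WT, and whether reads were counted by strand is not given in the sources used here.

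Cnot8 (ENSMUSG00000020515, chr11:58104153-58118594, plus strand) was at 31.6, 16.7, 26.4 and 23.9 FPKM in KO and at 63.8, 47.8, 28.4 and 50.1 FPKM in WT. Only KO replicate 1 and WT replicate 3 crossed. The mean was 24.6 ± 6.19 FPKM in KO against 47.5 ± 14.6 FPKM in WT, with a log2 difference of -0.90 (SE 0.28, limma adjusted p = 0.0220). The call was lost without KO replicate 2 and without WT replicate 1, 2 or 4, where the log2 differences were -0.73, -0.74, -0.88 and -0.86.

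The balance of the CAF1-type pair differed as well. Cnot8 made up 51.5%, 57.0%, 48.4% and 40.7% of the summed FPKM of the pair in KO, against 84.1%, 76.2%, 75.9% and 87.6% in WT. The pair was near parity in KO, and Cnot8 predominated in every WT library. The log2 ratio of Cnot8 to Cnot7 was -0.04 ± 0.38 in KO and 2.03 ± 0.54 in WT, a difference of -2.07 (exact two-sided permutation p = 0.0286, adjusted 0.0286), and the summed level was 50.9 ± 14.7 FPKM in KO and 58.3 ± 16.0 FPKM in WT. Without the 3 libraries richest in non-erythroid markers, the difference in log2 ratio was -2.41 for this pair and -1.53 for the CCR4-type pair. After the GC correction it was -1.51 for this pair and -1.64 for the CCR4-type pair. With each library left out in turn, both ratios kept an adjusted exact permutation p of 0.0286 to 0.0429. GC content differed little within the CCR4-type pair, with 39.6% in the Cnot6l transcript and 39.8% in that of Cnot6. It was 48.5% for Cnot8 and 40.7% for Cnot7.

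**Figure D3:**
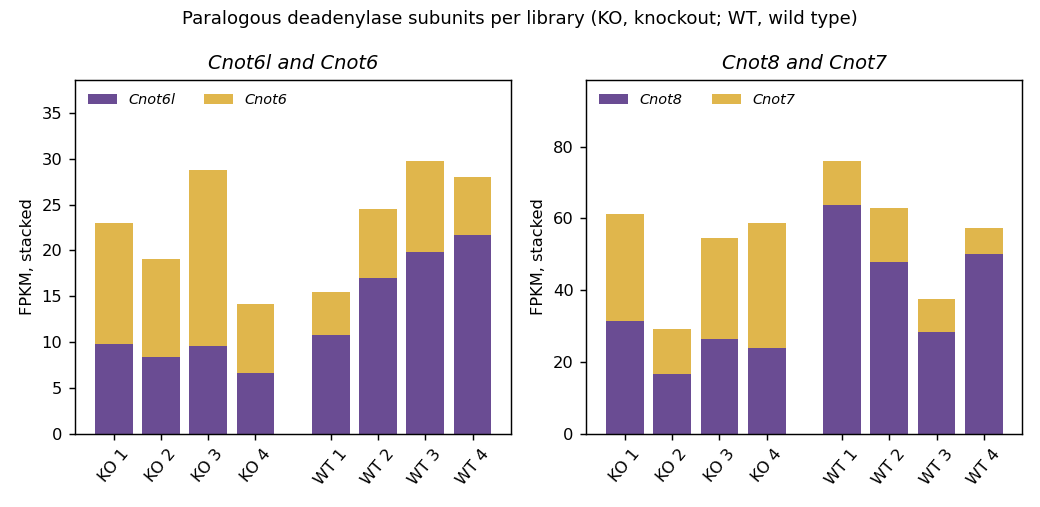
FPKM of the paralog pairs in each library, stacked, with KO libraries left of WT libraries. The Cnot6l share averages 41.7% in KO and 70.9% in WT, and the Cnot8 share 49.4% in KO and 80.9% in WT.

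Among the adaptors, Btg4 had the largest difference of the group. Btg4 (ENSMUSG00000032056, chr9:51060901-51119875, plus strand) was at 0, 0.699, 0.328 and 0.450 FPKM in KO and at 48.3, 41.1, 26.6 and 53.1 FPKM in WT. In reads, these were 0, 26, 10 and 11 in KO and 1473, 1044, 573 and 1130 in WT. Every KO library was under 1 FPKM, so Btg4 passed the filter through its WT libraries alone. Its mean was 114.4-fold lower in KO, 0.369 ± 0.291 FPKM against 42.3 ± 11.6 FPKM in WT, and its log2 difference was -4.96 (SE 0.29, limma adjusted p = 1.16e-06). In rank among tested genes, Btg4 stood at percentile 2.87 in KO and 87.6 in WT. The call held under every alternative tried, and with a pseudocount of 5 the log2 difference was -3.10.

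Zfp36l2 (ENSMUSG00000045817, chr17:84183931-84187947, minus strand), the AU-rich element binder, was at 4.51, 7.87, 15.0 and 1.95 FPKM in KO and at 22.8, 24.1, 29.3 and 37.2 FPKM in WT. KO values varied widely and all lay below WT. The mean was 7.33 ± 5.65 FPKM in KO against 28.3 ± 6.53 FPKM in WT, 3.87-fold lower, with a log2 difference of -2.06 (SE 0.44, limma adjusted p = 0.00352). The highest KO values, in replicates 3 and 2, stood in the libraries with the highest stromal sums, 319.0 and 255.9 FPKM, against 7.61 and 10.4 FPKM in KO replicates 1 and 4. Without those KO libraries and WT replicate 3 the difference was -2.81 and still called. Among KO libraries, the pregranulosa and immune sums were also highest in replicates 3 and 2. The part of any of these cell types in the Zfp36l2 values was not tested.

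Ythdf2 (ENSMUSG00000040025, chr4:132184912-132212303, minus strand), the m6A reader, was at 91.4, 82.9, 74.0 and 112.8 FPKM in KO and at 64.9, 68.4, 47.2 and 59.7 FPKM in WT. The groups did not overlap, but KO replicate 3 and WT replicate 2 were near each other. The mean was 90.3 ± 16.6 FPKM in KO against 60.0 ± 9.26 FPKM in WT, 1.503-fold higher, with a log2 difference of 0.58 (SE 0.19, limma adjusted p = 0.0333). This was the largest adjusted p among the 7 calls. The call was lost without KO replicate 1 or 4, without WT replicate 3 or 4, after the GC correction (log2 difference 0.44, adjusted p = 0.127), and without the 4 libraries richest in erythroid markers (0.66, adjusted p = 0.0509).

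Of the poly(A)-binding proteins, Pabpc1 (ENSMUSG00000022283, chr15:36595661-36609668, minus strand) was the most abundant gene of the group in both genotypes. It was at 279.7, 260.8, 263.3 and 322.3 FPKM in KO and at 90.1, 124.8, 102.8 and 104.4 FPKM in WT. The groups were far apart, and no library of either genotype came near the other. The mean was 281.5 ± 28.5 FPKM in KO against 105.5 ± 14.3 FPKM in WT, 2.67-fold higher, with a log2 difference of 1.41 (SE 0.16, limma adjusted p = 8.5e-05). The call held under every alternative tried, and the GC correction left the difference at 1.41.

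Pabpc1l (ENSMUSG00000054582, chr2:164025450-164050538, plus strand) was barely detected. It was at 1.004, 0.0505, 0 and 0.0384 FPKM in KO and at 0, 0.148, 0.435 and 0.176 FPKM in WT, which were 32, 2, 0 and 1 reads in KO and 0, 4, 10 and 4 reads in WT. The groups overlapped and no difference was detectable at this depth (exact permutation p = 0.943, two-sided). The log2 ratio of Pabpc1l to Pabpc1 differed by -1.37, but with Pabpc1l near the pseudocount of 1 that ratio mostly follows Pabpc1. It was no longer past the threshold without any 1 of the WT libraries (adjusted exact permutation p = 0.0571).

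By level, the order in KO was Pabpc1, Ythdf2, Cnot7, Cnot8, Cnot1, Cnot6, Cnot6l, Zfp36l2, Btg4 and Pabpc1l. In WT the order was Pabpc1, Ythdf2, Cnot8, Btg4, Zfp36l2, Cnot1, Cnot6l, Cnot7, Cnot6 and Pabpc1l. In KO, the libraries of neighbours overlapped except between Pabpc1 and Ythdf2, between Ythdf2 and Cnot7, and between Zfp36l2 and Btg4. In WT, they overlapped except between Pabpc1 and Ythdf2, between Zfp36l2 and Cnot1, and between Cnot6 and Pabpc1l. Several members share long stretches with unlisted pseudogenes at 95% identity or more over at least 100 bases, which the authors' counting could have split: Ythdf2 up to 1840 bases, Pabpc1 up to 1052, Cnot1 up to 903 and Cnot8 up to 760. No such match was found for Cnot6, Cnot6l, Btg4 or Pabpc1l.

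The genes whose pattern over the 8 libraries was most like that of the 3 members with the largest differences were found by the root mean square (RMS) difference of centred log2(FPKM + 1). For Btg4 these were Tcl1b1 (RMS 0.23), Sox15 (0.29) and Astl (0.30), where Astl encodes ovastacin, an oocyte protease that cleaves the zona pellucida after fertilisation. Tcl1b1 averaged 0 FPKM in KO and 34.8 ± 11.1 FPKM in WT, and Astl 0 FPKM in KO and 32.4 ± 14.2 FPKM in WT. Both passed the filter through their WT libraries alone. Nearest to Zfp36l2 were Myo10 (RMS 0.19), Tanc1 (0.25) and Foxn3 (0.25), all lower in KO by the mean. Nearest to Pabpc1 were Usp54 (RMS 0.11), Smc1b (0.14) and Mipol1 (0.16). Smc1b, a meiotic cohesin subunit, averaged 604.2 ± 122.9 FPKM in KO against 216.4 ± 23.9 FPKM in WT. The RMS difference spans both genotypes, so genes near a member share the direction and size of its difference by construction. Their direction is therefore no separate evidence.

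Around the 10 genes, 100 further genes of tail and cap turnover were examined in 7 lists. Of these 93 were tested, 15 were higher in KO and 27 lower, and 45.2% were called, beside 43.4% of all tested genes. Among all tested genes 17.7% were higher and 25.6% lower. The median log2 difference of the listed genes was -0.20, beside -0.12 for all. The share of the lists called was thus near the background.

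**Figure D4:**
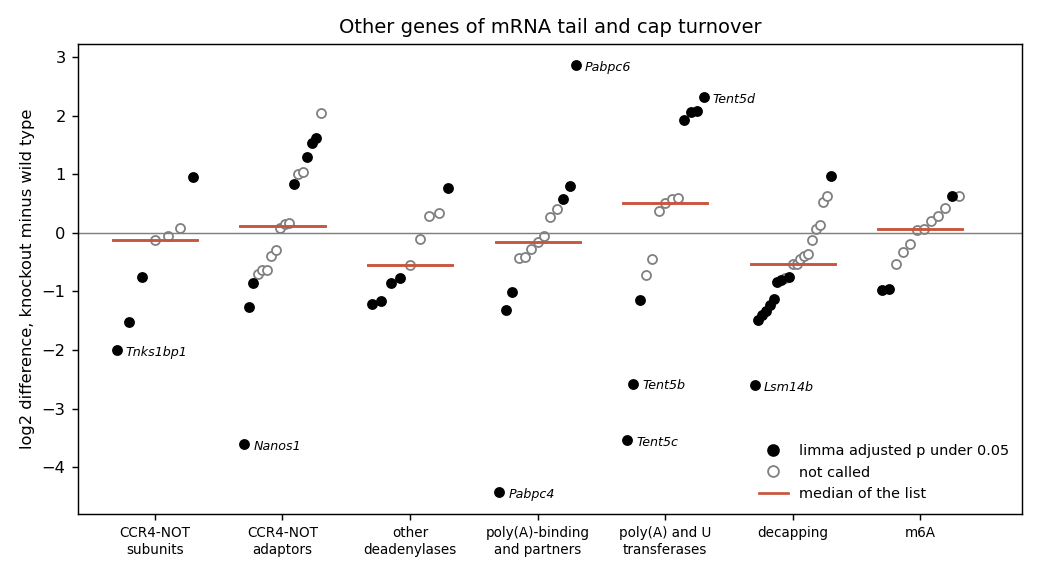
Log2 difference, KO minus WT, of the tested genes in each of the 7 lists, with filled points for called genes, open points for others and a bar for each list's median. The lowest points are Pabpc4 at -4.43, Nanos1 at -3.61 and Tent5c at -3.54, and the highest is Pabpc6 at 2.86.

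The other CCR4-NOT subunits were mixed: of 7, 1 was higher, 3 were lower and 3 were not called, with a median log2 difference of -0.12. With 7 genes, the 57.1% called stand beside 43.4% of all tested genes. CNOT2 and CNOT3 form the NOT module together on the scaffold, yet their mRNAs moved apart. Cnot2 was at 53.6, 46.3, 44.5 and 79.4 FPKM in KO and at 34.0, 27.6, 24.7 and 24.9 FPKM in WT, a log2 difference of 0.96 (limma adjusted p = 0.00543). Cnot3 was at 5.53, 6.38, 4.82 and 5.29 FPKM in KO and at 19.99, 17.8, 13.0 and 20.5 FPKM in WT, a difference of -1.52 (limma adjusted p = 0.0004). Neither gene's libraries overlapped between genotypes, beside 39.9% of all tested genes without overlap. Cnot2 and Cnot3 were named for their small p, so this separation is no separate evidence. Tnks1bp1, a CCR4-NOT associated protein, averaged 1.40 ± 0.445 FPKM in KO against 8.95 ± 3.11 FPKM in WT. Cnot4, an E3 ubiquitin ligase, averaged 15.3 ± 4.03 FPKM in KO against 25.6 ± 1.10 FPKM in WT (log2 difference -0.75), and its call was lost with median-of-ratios scaling and without either set of marker-rich libraries. The GC correction brought Cnot3 to -0.84 and Tnks1bp1 to -1.23, both still called. Cnot9, Cnot10 and Cnot11 had log2 differences of -0.06, 0.08 and -0.12 and were not called.

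Among 20 other adaptors, 18 were tested, 4 were higher, 3 lower and 11 not called, and the median log2 difference was 0.12. Thus 38.9% were called, beside 43.4% of all tested genes. The called members of the BTG and TOB family, to which Btg4 belongs, were higher in KO, unlike Btg4. Tob1 was at 58.6, 82.0, 86.2 and 71.1 FPKM in KO and at 25.1, 25.1, 17.1 and 27.5 FPKM in WT, a log2 difference of 1.62 (limma adjusted p = 0.00017). Btg3 averaged 30.2 ± 7.35 FPKM in KO against 10.0 ± 3.68 FPKM in WT (log2 difference 1.53), and Btg1 30.3 ± 10.4 FPKM in KO against 11.3 ± 2.34 FPKM in WT (1.3). All 3 had every KO library above every WT library, as did 15.9% of tested genes. They were named for their small p, so this separation is no separate evidence. Without the 3 libraries richest in non-erythroid markers Btg1 was at 0.80, still called. Nanos1, a germline repressor that recruits CCR4-NOT, was 17.5-fold lower in KO, at 0.871, 2.70, 2.65 and 1.38 FPKM against 30.7, 32.3, 30.6 and 39.1 FPKM in WT (log2 difference -3.61, limma adjusted p = 6.1e-06). Cpeb1, which binds the cytoplasmic polyadenylation element of stored oocyte mRNAs, averaged 61.0 ± 22.6 FPKM in KO against 141.6 ± 21.1 FPKM in WT (log2 difference -1.26). Ythdf1, an m6A reader related to Ythdf2, had a log2 difference of -0.86, opposite in sign to Ythdf2. Its call was lost without KO replicate 1 or 2 or WT replicate 2, 3 or 4, and also with no filter, with median-of-ratios scaling, after the GC correction and without the 3 libraries richest in non-erythroid markers.

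The early-response relatives of these adaptors, singled out after their values were seen, varied with the tube. Btg2 was at 69.8, 137.1, 287.9 and 10.9 FPKM in KO and at 17.1, 44.2, 76.3 and 28.4 FPKM in WT. Zfp36l1 was at 48.3, 142.1, 233.3 and 7.76 FPKM in KO and at 9.16, 27.9, 79.5 and 37.1 FPKM in WT. Both were highest in KO replicate 3 and, among WT libraries, in replicate 3, as were the stromal markers, whose part in these values was not tested. Zfp36 did not follow that order: it was at 98.6, 82.0, 73.3 and 3.19 FPKM in KO and at 2.24, 4.12, 31.8 and 15.0 FPKM in WT. Its highest value was in KO replicate 1, where the stromal sum was 7.61 FPKM but the endothelial sum was 117.9 FPKM. The part of either cell type in the Zfp36 values was not tested. None of the 3 was called, with limma adjusted p = 0.321 for Btg2, 0.399 for Zfp36l1 and 0.121 for Zfp36.

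Of 9 genes in the list of other deadenylases, 1 was higher, 4 lower and 4 not called, and the median log2 difference was -0.56. In this list 55.6% were called, beside 43.4% of all tested genes, whose median was -0.12. Not every listed gene is known to shorten mRNA tails. Pnldc1, the nuclease that trims piRNA ends in mouse germ cells, averaged 12.9 ± 4.58 FPKM in KO against 29.0 ± 3.95 FPKM in WT (log2 difference -1.16, limma adjusted p = 0.0049). Angel1 and Angel2, related to the CCR4-type nucleases, had log2 differences of -1.21 and 0.76. Pan2, the catalytic subunit of PAN2-PAN3, had a difference of -0.76. The calls of Angel1, Angel2 and Pan2 were all lost after the GC correction (limma adjusted p = 0.148, 0.0541 and 0.181) and without the 4 libraries richest in erythroid markers. That of Angel2 was also lost without WT replicate 2, and that of Pan2 without KO replicate 4 or WT replicate 1, 2 or 4 and under both other scalings. Without the 3 libraries richest in non-erythroid markers, Angel1 was at -0.60. The count of lower genes was 2 without KO replicate 4, WT replicate 2 or WT replicate 4, and 2 after the GC correction.

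Of 17 further poly(A)-binding proteins and partners, 13 were tested, with 3 higher, 3 lower and 7 not called, or 46.2% called beside 43.4% of all tested genes. Pabpc4, a broadly expressed cytoplasmic poly(A)-binding protein, was 31.5-fold lower in KO, the reverse of Pabpc1. It was at 0.722, 3.09, 2.31 and 1.38 FPKM in KO and at 69.2, 58.8, 41.1 and 66.9 FPKM in WT, a log2 difference of -4.43 (SE 0.30, limma adjusted p = 3.06e-06). Pabpc4 shares sequence with 10 unlisted genes at 95% identity or more. Pabpc6 was at 3.87, 5.01, 6.33 and 15.7 FPKM in KO and at 0, 0.125, 0 and 0.149 FPKM in WT, where it had 8 reads in all, and its log2 difference was 2.86 (limma adjusted p = 0.000202). It passed the filter through its KO libraries alone. Pabpc1 and Pabpc6 thus stood higher and Pabpc4 lower in KO. None of the 3 overlapped between genotypes, beside 39.9% of all tested genes without overlap, and Pabpc4 and Pabpc6 were named for their small p. Paip1, which binds PABPC1 and aids translation, averaged 80.6 ± 12.2 FPKM in KO against 46.4 ± 9.14 FPKM in WT (log2 difference 0.79). Eif4g1, the translation initiation scaffold that PABPC1 contacts, averaged 17.2 ± 4.79 FPKM in KO against 44.2 ± 10.2 FPKM in WT (log2 difference -1.32). Larp1 and Eif4g2 had log2 differences of -1.003 and 0.58 and lost their calls when any of several libraries was left out: KO replicate 1 or 4 or WT replicate 3 or 4 for both, KO replicate 2 for Larp1 and WT replicate 2 for Eif4g2. Both also lost them after the GC correction, with quantile normalization and with no filter, Larp1 with median-of-ratios scaling and without either set of marker-rich libraries, and Eif4g2 with the replicate block and without a trend in eBayes. Paip1 lost its call without the 4 libraries richest in erythroid markers, and Eif4g1 was at -0.86 after the GC correction, still called. Pabpn1l, a nuclear-type poly(A)-binding protein of oocytes that was named after its values were seen, was at 0 FPKM in all 4 KO libraries and at 1.26, 0.675, 2.09 and 26.3 FPKM in WT, and fell below the filter.

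**Figure D5:**
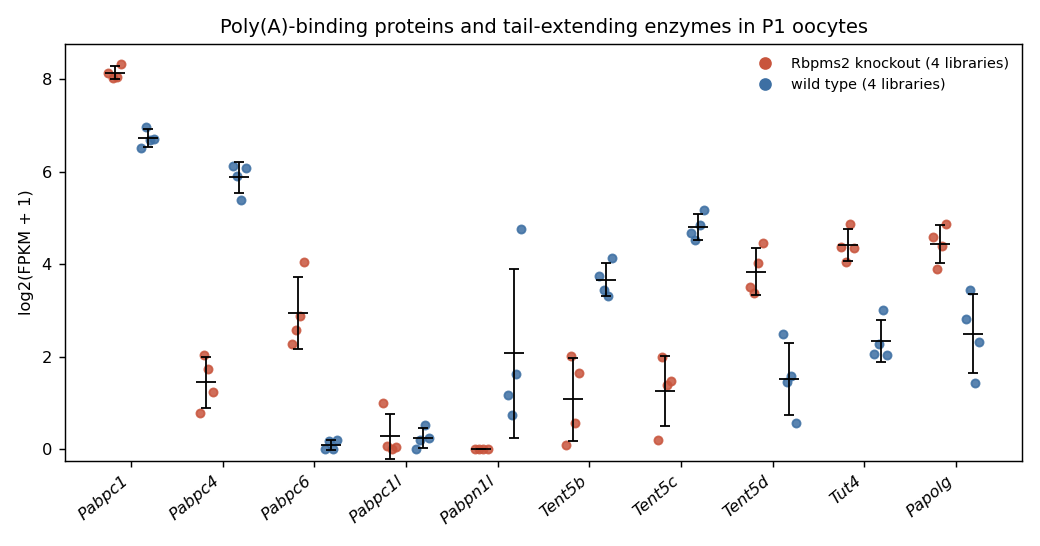
Levels of poly(A)-binding and tail-extending genes in each library, as log2(FPKM + 1), with KO libraries left of WT libraries, means as ticks and 1 SD as vertical bars. Pabpc1, Pabpc6, Tent5d, Tut4 and Papolg are higher in KO, and Pabpc4, Tent5b and Tent5c lower.

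Enzymes that lengthen or tag tails included large differences of both signs: of 14, 13 were tested, with 4 higher, 3 lower and 6 not called. Their median log2 difference was 0.51, and 53.8% were called, beside 43.4% of all tested genes. Tut4, which adds uridine to short tails, was at 19.6, 15.4, 28.3 and 19.5 FPKM in KO and at 3.17, 3.81, 7.09 and 3.13 FPKM in WT, a log2 difference of 2.06 (limma adjusted p = 0.000277). Papolg, a nuclear poly(A) polymerase, averaged 21.3 ± 6.02 FPKM in KO against 5.40 ± 3.45 FPKM in WT (log2 difference 1.93). The TENT5 family of cytoplasmic poly(A) polymerases split by gene. Tent5c was at 0.154, 3.01, 1.61 and 1.78 FPKM in KO and at 24.6, 22.1, 27.9 and 35.1 FPKM in WT (log2 difference -3.54, limma adjusted p = 4.36e-05), and Tent5b averaged 1.43 ± 1.40 FPKM in KO against 11.98 ± 3.36 FPKM in WT (-2.58). Tent5d was at 10.3, 9.36, 15.4 and 21.0 FPKM in KO and at 4.61, 1.75, 1.99 and 0.494 FPKM in WT (log2 difference 2.32, limma adjusted p = 0.00113). Tent4b, a further poly(A) polymerase, averaged 5.28 FPKM in KO against 12.7 FPKM in WT (log2 difference -1.15). After the GC correction Tent5d was at 1.25, still called. The other TENT5 gene, Tent5a, fell below the filter, at 1.14, 7.14, 2.97 and 0.715 FPKM in KO and 0.338, 0.0353, 0.540 and 0.316 FPKM in WT. None of the 4 TENT5 genes overlapped between genotypes, beside 39.9% of all tested genes without overlap. KO libraries lay above WT for Tent5a and Tent5d and below WT for Tent5b and Tent5c. Tent5a was not tested, and its lowest KO value, 0.715 FPKM, was close to its highest WT value, 0.540 FPKM. Tent5b, Tent5c and Tent5d were named for their small p, so their separation is no separate evidence.

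Decapping and 5′ decay, the step after deadenylation, held 9 lower genes, 1 higher and 11 not called out of 21, with a median log2 difference of -0.54. That is 47.6% called, near the 43.4% of all tested genes, of which 25.6% were lower, with a median of -0.12. Lsm14b, an oocyte RNA-granule protein, averaged 6.59 ± 1.65 FPKM in KO against 46.9 ± 18.1 FPKM in WT, 7.12-fold lower (log2 difference -2.60, limma adjusted p = 7.46e-05). Edc4, a decapping scaffold, averaged 7.93 ± 0.622 FPKM in KO against 22.7 ± 2.35 FPKM in WT, and Lsm6, part of the LSM ring that binds shortened tails, 27.8 ± 3.18 FPKM in KO against 61.5 ± 2.55 FPKM in WT. Edc4 had a log2 difference of -1.41, and of -0.86 after the GC correction, called in both. The 1 higher gene, Pnrc2, had a log2 difference of 0.98 (limma adjusted p = 0.0495) and lost its call without KO replicate 1, 2, 3 or 4 or WT replicate 3 or 4, after the GC correction and under several other settings. Of 12 genes that write, erase or read m6A in the nucleus, 1 was higher, 2 lower and 9 not called. The share called in this list was thus below the 43.4% of all tested genes. Its median log2 difference was 0.06, beside -0.12 for all tested genes. Alkbh5, an m6A demethylase, averaged 47.2 ± 6.397 FPKM in KO against 92.98 ± 17.3 FPKM in WT (log2 difference -0.95). Wtap at 0.62 and Rbm15b at -0.98, both parts of the writer complex, lost their calls after the GC correction (limma adjusted p = 0.164 and 0.36). They also lost them when single libraries were left out: KO replicate 1 or 4 or WT replicate 2 or 3 for both, WT replicate 1 for Wtap, and KO replicate 2 or WT replicate 4 for Rbm15b. Rbm15b further lost its call with quantile normalization and with no filter, and Wtap without the 4 libraries richest in erythroid markers.

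Base composition moved with the differences over the whole table. The median log2 difference was 0.52 in the tenth of tested genes with the lowest transcript GC content and -0.90 in the tenth with the highest. The transcripts of Cnot7, Btg4 and Ythdf2 had 40.7%, 41.3% and 46.1% GC, that of Pabpc1 47.8% and that of Zfp36l2 54.8%, beside a median of 49.98% over tested genes. Btg4 was thus low in GC and lower in KO, against that trend, and its difference after the GC correction was -5.43. Zfp36l2 lay with the trend, and its corrected difference was -1.56, still called. With 0 to 26 reads per KO library, the corrected value of Btg4 rests on levels near the floor. The part of base composition in either difference was not tested.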

How the data were processed

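RNA-seq libraries of hand-picked P1 oocytes, 4 from Rbpms2 KO and 4 from WT ovaries, were analysed. The deposited values are FPKM per gene, made by the authors; per the submitters' processing notes, cutadapt, HISAT2, HTSeq and the build GRCm38 (mm10) were used, with no version or annotation release named. Amplified reads carry no molecular identifiers, so read numbers cover counting error only. Symbols and exon lengths came from GENCODE M21 for 21902 of 21959 genes. The FPKM steps, multiplied by exon length, gave whole reads (within 0.02) for 97.4% to 97.6% of values per library, from which depth was read.

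Genes with FPKM of at least 1 in at least 4 libraries were tested as log2(FPKM + 1) with limma 3.58.1 (R 4.3.3, eBayes with trend, Benjamini-Hochberg over 11235 genes), which understates changes of low genes. Paralog ratios were tested by exact permutation of the genotype labels (70 arrangements). Shared sequence was sought with blastn 2.17.0. On simulated data with known changes, this fit recovered 36 of 100 genes changed 2-fold and 89 of 100 changed 4-fold among 11220, with 11 false calls. Only those genes were changed there, all of them among the better expressed, with noise drawn independently for each library. In the real data 43.4% of tested genes were called, so these rates do not give the power or error of the calls above.

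The members and gene lists were chosen with earlier results of these data known. Named genes are the 10 members, Rbpms2, up to 3 called genes per direction and list with the smallest p, and the 3 genes most alike in pattern to each of the 3 members with the largest differences. Alternatives were other pseudocounts, filters, scalings, a GC correction, a replicate block and leaving out each library. Leaving out the 3 libraries richest in non-erythroid markers of other cells (mean of 5 lists), or the 4 richest in erythroid markers, was added after seeing the data.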

Additional observations from a re-analysis of the deposited data

Results flagged for a closer look

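Of 94 groups of 4 libraries examined, 3 held a library far from the others by Dixon's test, where chance gives about 1 in 20. Pabpc1l was at 1.004 FPKM in KO replicate 1, far above the other KO libraries. Lsm14b was at 9.03 FPKM in KO replicate 3, above the other KO libraries and below every WT library. Lsm6 was at 57.7 FPKM in WT replicate 4, below the other WT libraries and above every KO library.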

How the results depend on the processing

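Btg4, Zfp36l2 and Pabpc1 kept their direction and their call under all alternatives, as did 22 of 33 named genes of the lists. The GC correction, alone or with the replicate block, left 1 member higher in KO, and gave log2 differences of -0.074 for Cnot1, 0.67 for Cnot7 (not called) and 0.44 for Ythdf2 (not called), with Cnot6l at -1.48 and still called. With those 2 settings the list of other deadenylases had 0 higher and 2 lower, and the m6A list 0 higher and 1 lower. Median-of-ratios scaling gave 0.86 for Cnot6 (now called), -0.75 for Cnot8 (not called) and 2 lower genes in the deadenylase list. Quantile normalization gave 0.92 for Cnot6 (now called), 2 lower genes in the deadenylase list, 2 higher decapping genes, and 2 higher and 1 lower m6A genes. Without a trend in eBayes, Ythdf2 at 0.58 was not called. The decapping list had 0 higher genes with a pseudocount of 0.1 or 5, no filter, the replicate block or no trend. The m6A list had 1 lower gene with no filter or a filter at 5 FPKM. Without the 3 libraries richest in non-erythroid markers, Cnot6l at -0.89 was not called and 3 m6A genes were higher. Without the 4 richest in erythroid markers, Ythdf2 at 0.66 was not called, the deadenylase list had 0 higher and 2 lower, and 0 m6A genes were higher. The difference in the Pabpc1l to Pabpc1 ratio was -1.59 with a pseudocount of 0.1 and -0.87 after the GC correction, neither past the threshold. The cause of these changes was not tested.

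With each library left out in turn, members higher in KO numbered 1 to 3 and members lower 2 to 4. Log2 differences ranged over 0.51 to 0.93 for Cnot6, -1.10 to -0.79 for Cnot6l, 1.004 to 1.48 for Cnot7, -1.12 to -0.73 for Cnot8 and 0.46 to 0.67 for Ythdf2. The deadenylase list had 0 to 1 higher and 2 to 4 lower, the decapping list 0 to 1 higher, and the m6A list 0 to 3 higher and 1 to 3 lower. The difference in the Pabpc1l to Pabpc1 ratio ranged from -1.61 to -1.23 and lost the threshold without any 1 WT library. The other paralog ratios stayed past it.

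Replicate numbers gave no steady pairing: the correlation of deviations from the group means was 0.185, 0.0158, 0.361 and -0.0530 for numbers 1 to 4. KO replicates 1 and 3 correlated best with the WT library of their own number. KO replicates 2 and 4 did so with WT replicates 3 (0.0942) and 1 (0.330). These correlations cannot show whether libraries shared a litter or batch. With the replicate block 2113 genes were higher and 2921 lower, 3 and 4 members among them, and no member's call changed. Blocked, the paralog ratios had an exact permutation p of 0.125, the smallest that 4 pairs allow. Tubes of few cells limit precision, and a gene such as Pabpc1l, with 0 to 32 reads a library, cannot show a modest difference.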
